A study of Mus musculus with 39 samples.

Results

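The cytosolic ribosomal protein genes encode the protein part of the ribosome outside mitochondria. Members were taken by symbol: every gene named Rpl or Rps followed by a number, by p0 to p2 or by a, without pseudogene symbols. This gave 76 of the 24421 genes in the time course table of mouse lymph node dendritic cells (DC), 46 of the large subunit and 30 of the small subunit. The same 76 were found among 24421 genes in a costimulation table and among 24411 in a table with 5 libraries per group. In a table of 7830 genes from CD4+ OT-II T cells 75 were listed, all but Rpl28. The rule reads symbols only.

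Ribosomal proteins assemble with ribosomal RNA in the nucleolus into a small subunit, which reads the messenger RNA, and a large subunit, which joins amino acids. Their messages belong to the TOP mRNAs, which begin with a C followed by a run of pyrimidines and whose translation is governed by the growth kinase mTORC1 and the binding protein Larp1. Activated lymphocytes and DC are known to change their rate of protein synthesis. Mammalian genomes carry many processed pseudogenes of these genes, so that a short read from a ribosomal protein message can match several places.

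All mice were C57BL/6 animals of 8 to 12 weeks, given nanoparticles by hock injection or left non-immunized, and cells were sorted from popliteal and inguinal lymph nodes. The time course held wild-type DC with 2 libraries per group: non-immunized, CpG-only particles at 12 and 24 h, and particles with ovalbumin (OVA) and CpG at 12 and 24 h. The costimulation experiment, all at 12 h, held 2 libraries each of wild-type DC after OVA without OT cells, after OVA with OT cells and after the control protein BSA with OT cells, and of Cd80/86 -/- DC after OVA with OT cells. A further DC experiment held 5 libraries each of wild-type non-immunized DC and of DC at 20 h after OVA-CpG or BSA-CpG particles, and the T cell experiment held 3 libraries each of OT-II cells at 20 h after the same 2 kinds of particles. The series text says that mice had received OT-I and OT-II T cells, but outside the costimulation labels it is not stated per sample which did. Nothing in the labels ties libraries to separate animals, so p-values measure the spread between libraries, which may be technical. In the 5-replicate experiment Y-linked transcripts were found in 3 of 5 non-immunized libraries (replicates 1 to 3), in 2 of 5 OVA libraries (replicates 3 and 4) and in 0 of 5 BSA libraries. The libraries of these groups thus did not all hold the same animals, and the groups were not balanced in sex. Each library was made from a bulk lysate of sorted cells with oligo(dT) capture, and in bulk samples fewer cells of a type and less RNA per cell cannot be told apart.

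The start of the transcript is where members carry the pyrimidine tract, so 30 bases are shown for 6 members. They are the 6 with such a tract that were lower after OVA at 20 h with any 1 library left out and under each other setting. The setting that left out replicate 3 of both groups together was not counted. Sequences are RefSeq's for GRCm38.p6, read 5′ to 3′ on the gene's strand, and capitals mark the tract (a C and at least 7 further C or T). The counts were made on mm9, and no position was carried between the builds.
Rpl35a (chr16:33056467-33056496, plus strand): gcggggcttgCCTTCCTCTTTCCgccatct
Rps18 (chr17:33955648-33955677, minus strand): gtcacttccgCTCTCTCTTCCacaggaggc
Rpl18 (chr7:45718062-45718091, plus strand): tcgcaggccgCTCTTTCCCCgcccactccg
Rpl27a (chr7:109519181-109519210, plus strand): acttcgtgagCTCCTCCCTTTTCCCTTTCT
Rpl35 (chr2:39005119-39005148, minus strand): gtcggccccgCCCTTTCCTCTTTCTCTCga
Rps10 (chr17:27635228-27635257, minus strand): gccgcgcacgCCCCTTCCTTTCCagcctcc

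Of the 76 members, 56 matched an entry in the RefSeq promoter table, which holds 250 bases before and 50 after each listed start. A tract beginning within 30 bases of the listed start was found in 36 of the 56 (64.3%), against 21.7% of 27025 genes in the table. On both strands of the 300 bases, CTTCCG was found for 69.6% of members and 18.8% of genes, GCCATNTT for 19.6% and 6.96%, TCTCGCGA for 17.9% and 1.13%, and TATAAA for 10.7% and 15.7%. The tract was about as frequent among members lower after OVA at 20 h as among the rest: it was found in 10 of 15 members called lower with a promoter entry (66.7%) and in 25 of 40 not called (62.5%). These matches describe letters in a window and not sites in use.

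The libraries held from 367209 to 2052904 counts in DC and from 155088 to 1316341 recovered reads in T cells, where each OVA library was deeper than each BSA library. The DC tables held reads of all 17 listed conventional DC genes, at a summed 27014 to 46927 CPM (the count of a gene scaled to 1000000 counts in the library) in the 5-replicate experiment and 3598 to 16639 in the time course. In the time course the non-immunized libraries were at 3598 and 5564 CPM, with the lowest group median, and the immunized ones at 5029 to 16639. The time course libraries also held T cell transcripts: its non-immunized libraries summed to 7816 and 8198 CPM over 17 T cell genes and its immunized libraries to 2291 to 4935, against 153 to 330 in the 5-replicate experiment and 5842 to 8918 in the sorted T cells. The T cell libraries in turn held conventional DC transcripts, at 7164 to 9755 CPM after BSA and 2266 to 8426 after OVA. The sums for sorted T cells are over fewer genes than those for DC. Their table of 7830 genes lists 16 of the 17 T cell genes and 10 of the 17 conventional DC genes. In the 5-replicate experiment, 9 monocyte and macrophage genes were tested, and the full list summed to 781 to 2366 CPM in non-immunized libraries and 204 to 419 in immunized ones. Over the members, OVA replicate 3 of this experiment stood apart: the SD of its log2 deviations from its group was 0.793, against 0.216 to 0.464 in the other 14 libraries. Rps15a was at 15.6 CPM in it and at 138 to 340 in the other OVA libraries, Rpl39 at 83.8 against 384 to 722, and Rps2 at 468 against 195 to 255. The 2 BSA libraries of the costimulation experiment differed likewise from each other, with Rpl39 at 439 and 73.1 CPM.

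Members that share 1 ribosome did not have 1 level. Per kilobase of coding length, Rpl41, the shortest ribosomal protein, was highest in every table, at a mean of 31572, 39358 and 38955 CPM per kb in the time course, costimulation and 5-replicate DC and 56442 in T cells. Rplp1, a protein of the flexible stalk that recruits elongation factors, came next in every table, at 15224, 10382, 14131 and 38482 CPM per kb. At the other end Rpl28, Rpl36a, Rpl28 and Rps23 were lowest in these tables at 11.6, 11.0, 9.70 and 49.2 CPM per kb, so that the highest and lowest members per kilobase stood 2719-fold, 3575-fold, 4014-fold and 1147-fold apart. The first place of Rpl41 rests on division by its 78 coding bases. In CPM without division by length, Rplp1 had rank 1 in all 4 tables, and Rpl41 had ranks 10, 3, 3 and 14. The highest and lowest members were then 1093-fold, 1014-fold, 1213-fold and 624-fold apart, less than after division. Mean CPM hardly went with coding length, at a Spearman's rho of 0.04, 0.09, 0.05 and 0.02. The order of members was alike in all tables: Spearman's rho of mean CPM between tables ran from 0.963 to 0.991 over 75 or 76 genes.

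The level went with how much of a member's coding sequence is found again elsewhere in the transcriptome. Each coding sequence in GENCODE M21 was divided into overlapping windows of 50 bases, and the share found exactly in a transcript of another gene, mostly a pseudogene, was counted. Untranslated parts of the members' messages were not included, and where reads lie along the genes is not given. Spearman's rho between this share and the mean CPM per kb was -0.709, -0.701, -0.715 and -0.697 in the 4 tables, as a description across genes that share libraries. With mean CPM not divided by length it was -0.755, -0.723, -0.736 and -0.740. The 60 members with over 75% of windows shared had a median of 273 CPM per kb (112 CPM without division) in the 5-replicate DC. The 12 between 25% and 75% had one of 3650 CPM per kb (1635 CPM without division). The 4 under 25% had a median of 3199 CPM per kb (2401 CPM without division), and Rps3 (8.05% shared), Rpl8 (8.69%) and Rpl4 (20.2%) are among them. By contrast Rpl12, Rps23 and Rpl28, all at 100%, had 12.8, 15.3 and 9.70 CPM per kb in the 5-replicate DC. Not all members with much shared sequence were low. Rpl41 had 100% shared and the highest level per kb. Rpl13, also at 100%, had 1798 CPM per kb in the 5-replicate DC, above the 1534 of Rpl4. Rps20 (84.9%) and Rpl39 (84.1%) had 3909 and 3959. How reads with several matching places were treated is not given in the sources used here, so the levels of most members are uncertain in absolute terms, and their part in the changes below was not tested.

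**Figure D1:**
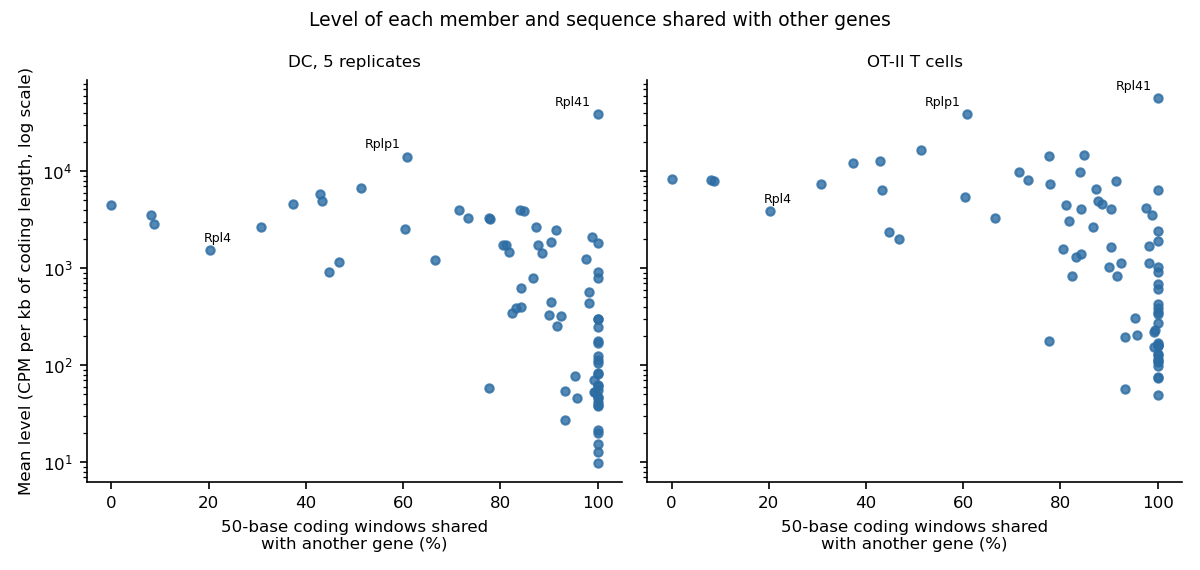
Mean level of each member in CPM per kilobase of coding length (log axis) against the share of its 50-base coding windows found in another gene, for the 5-replicate DC (76 members) and OT-II T cells (75 members). Each point is 1 gene: the 4 members under 25% lie at 1534 CPM per kb (Rpl4) or above in DC, while those at 100% reach from 9.70 to 38955.

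Summed over all members, ribosomal proteins took 13.1 to 15.4% of the T cell reads and 3.34 to 8.12% of the DC reads. The T cell table lists fewer genes. Over the 7746 genes in all 4 tables the shares were 13.3 to 15.5% and 3.63 to 8.57%. The shares below are over all genes of each table. In the time course the 2 non-immunized libraries had shares of 8.12% and 7.31%. The OVA libraries stood at 6.33% and 6.50% at 12 h and at 5.42% and 5.71% at 24 h, and the CpG libraries at 6.06% and 6.24% at 12 h and 6.05% and 7.38% at 24 h. The OVA 24 h libraries were thus the lowest of this experiment, and CpG 24 h replicate 2 overlapped the non-immunized range. A share of reads can also fall where other genes rise. At OVA 12 h both shares were below the non-immunized ones, while the members' median log2 change in the gene test below was 0.00. In the 5-replicate experiment non-immunized DC had 6.77%, 5.75%, 7.43%, 6.28% and 5.72%, BSA libraries 5.48%, 5.33%, 5.75%, 6.37% and 4.70%, and OVA libraries 4.91%, 4.53%, 4.10%, 4.91% and 4.83%. Every OVA library was below every non-immunized library (6.39% ± 0.724 against 4.65% ± 0.345, SD, n = 5 each), while BSA (5.53% ± 0.609, SD, n = 5) overlapped both. The shallowest library, non-immunized replicate 3, had the highest share and the deepest, OVA replicate 3, the lowest.

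**Figure D2:**
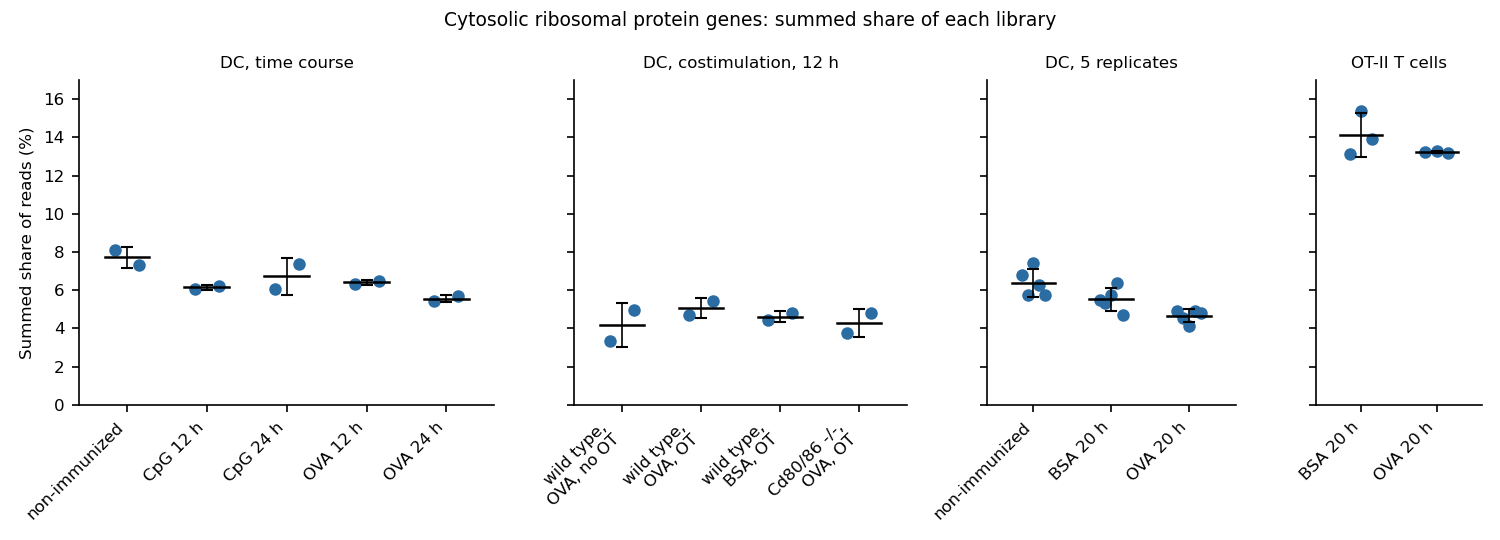
Summed share of reads of the members (y axis, %) in each library (points), with the group mean (bar) and SD (whisker), for the 4 experiments. The 5 OVA libraries at 20 h lie between 4.10% and 4.91%, below the non-immunized libraries at 5.72% to 7.43%, and the T cell libraries lie between 13.1% and 15.4%.

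Whether DC at 20 h after OVA-CpG particles differed from non-immunized DC was tested gene by gene over 9159 genes, with 75 members among them (Rpl28 was too low). Of the 75 members, 24 were lower and 0 higher at an adjusted p under 0.05 (edgeR quasi-likelihood test, Benjamini-Hochberg), where 6.04% of all genes were lower and 9.59% higher. The 24 were 15 of 45 large and 9 of 30 small subunit proteins. The median log2 fold change was -0.51 over members, with 72 of 75 below 0, and -0.01 over all genes tested, of which 51.4% were below 0. Without overlap of the 5 and 5 libraries in CPM, 35 members were lower and 0 higher, against 8.14% and 3.84% of genes.

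Rpl10, which sits near the site where the transfer RNA's amino acid is handed over, had the smallest adjusted p. Its levels were 153, 127, 202, 167 and 132 CPM in non-immunized DC, 69.0, 102, 95.1, 132 and 81.0 after BSA, and 69.2, 81.8, 84.8, 85.0 and 61.9 after OVA. All OVA libraries were below all non-immunized ones, and BSA lay between them with some overlap of both. The log2 fold change of OVA was -0.87 ± 0.17 (SE, edgeR adjusted p = 0.00143).

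Rps18, a protein of the small subunit's head, was at 1035, 956, 2108, 977 and 708 CPM in non-immunized DC and at 584, 533, 527, 528 and 520 after OVA. The OVA libraries lay in a narrow band below all controls, and the control spread came mainly from replicate 3. Its log2 fold change was -0.97 ± 0.22 (SE, edgeR adjusted p = 0.00527). Rpl35a, a large subunit protein mutated in some patients with Diamond-Blackfan anaemia, had the lowest fold change, -1.81 ± 0.45 (SE, edgeR adjusted p = 0.00819). This size rests on 1 library: non-immunized replicate 1 was at 647 CPM and the others at 126, 153, 115 and 61.6, against 51.9, 66.5, 45.3, 77.9 and 43.4 after OVA, so the groups overlapped.

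Rpl18, of the large subunit, was at 331, 292, 428, 331 and 268 CPM in non-immunized DC and at 160, 217, 173, 226 and 177 after OVA. The groups did not overlap (log2 fold change -0.64 ± 0.16, SE, edgeR adjusted p = 0.0102). Rpl11, which with Rpl5 can bind Mdm2 when ribosome assembly fails, was low throughout, at 29.8 to 49.3 CPM (median 40.9) in controls against 14.9, 19.6, 24.8, 29.7 and 17.9. All OVA libraries were below, the highest of them just under the lowest control (-0.71 ± 0.21, SE, edgeR adjusted p = 0.0280). Rpl5 itself did not pass, at -0.55. Rpl22, known from work on lymphocyte development, had log2 -0.55 (edgeR adjusted p = 0.0244), and 1113 to 1593 CPM in controls against 658 to 927 after OVA.

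Further called members included Rps28, Rpl27a, Rpl35, Rpl3, Rps10, Rpl23, Rps16, Rps26, Rpl32, Rpl36, Rps14, Rpl21, Rpl37a, Rps20 and Rpl34, with log2 fold changes between -0.84 (Rps28) and -0.43 (Rps20, Rpl34). Abundant members were among them: Rps14 went from 3799 to 2309 CPM and Rpl32 from 2349 to 1494 CPM in the group means. The stalk proteins did not pass: Rplp0 had log2 -0.16, Rplp1 -0.30 and Rplp2 -0.62, the last with 139 CPM in OVA replicate 3 and 292 to 447 in the rest of its group. Nor did Rps4x (-0.88), whose OVA replicate 3 was at 28.3 CPM and the other OVA libraries at 142 to 271. Rps19 (-0.03), Rpl41 (0.10), Rpsa (0.19) and Rps21 (0.48) had values near or above 0. Rps21 was at 822 CPM in OVA replicate 1 and at 113 to 169 in the other OVA libraries, which were all under the 204 to 244 of the controls.

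Members with shared and with distinct sequence did not have the same median change. The 59 tested members with over 75% of windows shared had a median log2 of -0.52 with 18 lower, the 12 between had -0.47 with 6 lower, and the 4 under 25% had -0.09 with 0 lower. The difference between these classes was not tested.

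**Figure D3:**
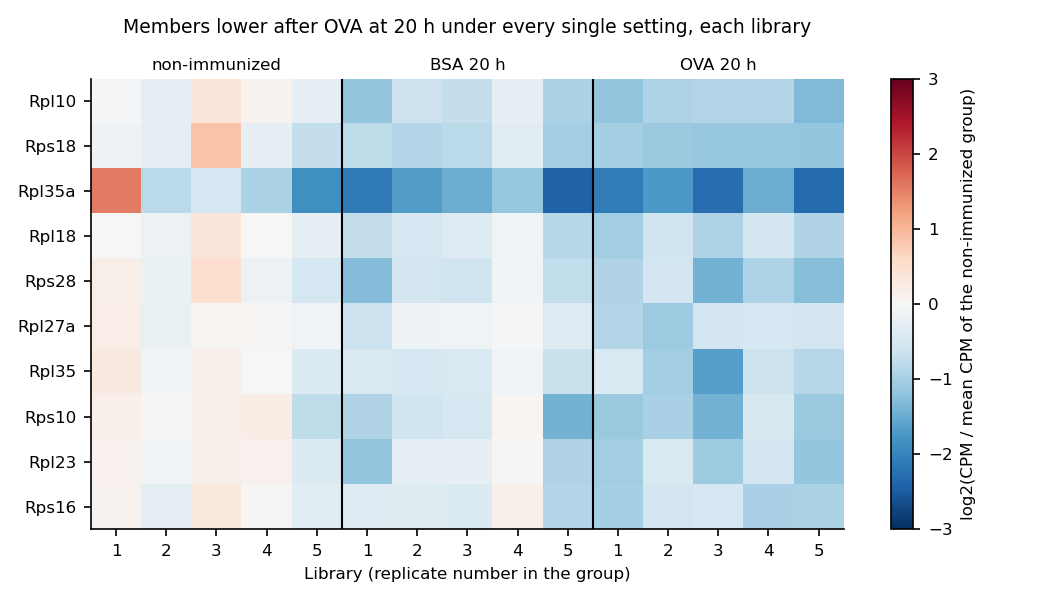
Level in each of the 15 libraries, as log2 of CPM over the mean of the non-immunized group (colour), for 10 members lower after OVA at 20 h. Their calls were kept with any 1 library left out and under each other setting, not counting the one without replicate 3 of both groups. Rows are genes by adjusted p, and columns are replicates. The OVA columns are blue in every row, the BSA columns are mostly paler, and Rpl35a shows its single high value, 647 CPM, in non-immunized replicate 1.

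The count depended on the libraries in hand. With non-immunized replicate 1 left out it was 14, with non-immunized replicate 3 left out 16, and with replicate 3 of both groups left out 8, where the members' median was -0.36. In 10 members the call was kept with each library left out in turn and under each other setting. They were Rpl10, Rpl18, Rpl23, Rpl27a, Rpl35, Rpl35a, Rps10, Rps16, Rps18 and Rps28. The setting without replicate 3 of both groups is not counted among these, and it kept 7 of the 24 calls. With library totals in place of TMM factors 43 were lower, but there the median of all genes also moved, from -0.01 to -0.17. Beside this result, 8 of 9 tested monocyte and macrophage genes were lower (median log2 -1.88). Of 17 conventional DC genes 5 were lower and 2 higher, and of 8 migratory DC genes 2 were higher and 1 lower. Plasmacytoid DC genes summed to 287 to 388 CPM in non-immunized and to 559 to 844 in OVA libraries. Their part in the result was not tested. T cell markers were near their low level in all groups: 0 of 5 tested changed, and the sums were 193 to 264 CPM in non-immunized and 153 to 330 in OVA libraries.

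BSA-CpG particles, compared at the same time with the same non-immunized libraries, gave 1 lower member, Rpl35a (-1.57 ± 0.44, SE, edgeR adjusted p = 0.0397), where 1.77% of genes were lower and 3.68% higher. The members' median was -0.21, with 66 of 75 below 0 (50.8% of genes). The call on Rpl35a was lost without non-immunized replicate 1 (log2 -0.59) and without any single BSA library other than replicate 4. It was also lost with a term for Y-linked transcripts (log2 -0.75), which were in 3 non-immunized and 0 BSA libraries. In this comparison too 8 of 9 monocyte genes were lower (median -1.76), a part that was not tested. Rpl10 had -0.55 after BSA and -0.87 after OVA, and Rps18 was at 680, 633, 662, 919 and 570 CPM after BSA. OVA against BSA itself gave 0 members in either direction (12 at an unadjusted p under 0.05, as had 6.13% of genes, 0 with DESeq2), as it gave 0.0% of all genes. Its median was -0.28, with 70 of 75 members below 0 (49.7% of genes), but the 2 kinds of particles were not shown to differ in any member. The nearest was Rpl27a at -0.44 ± 0.15 (SE, edgeR adjusted p = 0.635).

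In the time course, OVA particles at 24 h gave 6 lower members and 0 higher against non-immunized DC, where 3.92% of 9428 genes were lower and 10.2% higher. They were Rpl35a, Rps21, Rps28, Rps10, Rps13 and Rps16. Rpl35a was at 152 and 147 CPM in non-immunized libraries and at 84.4 and 65.2 at 24 h (log2 -0.78 ± 0.22, SE, edgeR adjusted p = 0.0248). Rps28, next to the messenger RNA's exit from the small subunit, was at 390 and 350 against 157 and 237 CPM (-0.70 ± 0.20, SE, edgeR adjusted p = 0.0300). Rps10 was at 234 and 230 against 128 and 133 CPM (-0.62 ± 0.19, SE, edgeR adjusted p = 0.0437). In each of the 3 the 24 h libraries were below both controls, as they were in 69 of the 75 members and in 44.8% of all genes tested. The members' median was -0.40, with 71 of 75 below 0 (52.0% of genes), and that of all genes -0.03. All 6 are near the threshold: DESeq2 called 1, leaving out 1 library at a time left 0 to 2, and library totals gave 36. Beside it, 10 of 16 T cell genes were lower at 24 h (median log2 -0.83), in the direction of the T cell sums given above, and 4 of 10 monocyte and macrophage genes were lower (-0.85). Higher were 9 of 15 conventional DC genes (median 1.37), 5 of 6 migratory DC genes (3.39) and 6 of 10 neutrophil genes (3.18). T cells had the higher ribosomal protein share, and the part of their transcripts in the result was not tested. Rpl35a, Rps10, Rps16 and Rps28 were called lower in both experiments, 16.7% of the 24 members at 20 h and 66.7% of the 6 at 24 h. The same overlap was not computed over all genes, so these shares have no background beside them.

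No member passed at 12 h. OVA at 12 h gave 0 members in either direction (1 at an unadjusted p under 0.05, as had 27.4% of genes, 0 with DESeq2), where 4.04% of genes were lower and 9.56% higher, and a median of 0.00 over members. With library totals this median was -0.23, beside -0.26 for all genes. At OVA 12 h 10 of 16 T cell genes were lower (median log2 -0.85) and 6 of 10 B cell genes higher (2.26), a part that was not tested. From 12 to 24 h after OVA, 6 members fell, where 3.87% of genes fell and 5.03% rose: Rps13, Rpl10, Rps21, Rpl3, Rpl11 and Rps27. Rps13, a small subunit protein at the interface with the large subunit, stood at 61.9 and 69.5 CPM at 12 h and at 17.9 and 21.7 at 24 h, with 44.0 and 49.4 in non-immunized DC. The 24 h pair was below all other libraries of this experiment (log2 -1.73 ± 0.32, SE, edgeR adjusted p = 0.00230), and it alone kept its call with each library left out. The median from 12 to 24 h was -0.39 over members, with 71 of 75 below 0 (49.5% of genes). In this comparison 0 of 16 T cell genes changed (median -0.04), whereas 9 of 10 monocyte genes fell (median -2.50) and 5 of 6 migratory DC genes rose (2.26), and their part was not tested.

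No member passed after CpG-only particles. Against the same non-immunized libraries, 0 members passed at 12 h (1 at an unadjusted p under 0.05, as had 28.1% of genes, 0 with DESeq2), where 4.65% of genes were lower and 11.6% higher. The nearest was Rps16 at -0.51 ± 0.20 (SE, edgeR adjusted p = 0.104), with 271 and 267 CPM in non-immunized and 148 and 178 in CpG libraries. At 24 h 0 passed (0 at an unadjusted p under 0.05, as had 22.7% of genes, 0 with DESeq2), where 3.05% of genes were lower and 7.96% higher. The members' medians were -0.10 and -0.08. Beside the 12 h result, 15 of 16 T cell genes were lower (median log2 -1.15). Higher were 9 of 10 neutrophil genes (6.85) and 12 of 15 conventional DC genes (1.83). Neutrophil genes summed to 14298 and 18149 CPM there, against 179 and 225 in non-immunized libraries. At 24 h 4 of 16 T cell genes were lower (-0.50). Of 15 conventional DC genes 8 were higher and 1 lower there (1.33). Their part was not tested. From 12 to 24 h after CpG 0 passed (1 at an unadjusted p under 0.05, as had 21.2% of genes, 0 with DESeq2), with 4.26% of genes lower and 3.36% higher and a median of 0.03.

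Direct comparison of the particles gave 0 members at 12 h (2 at an unadjusted p under 0.05, as had 12.9% of genes, 0 with DESeq2), where 1.71% of genes were lower and 0.753% higher, and a median of 0.10. At 24 h it gave 0 (6 at an unadjusted p under 0.05, as had 10.2% of genes, 0 with DESeq2), where 0.0% of genes passed, and a median of -0.30. The interaction, which asks whether OVA and CpG moved differently from 12 to 24 h, also gave 0 members (14 at an unadjusted p under 0.05, as had 14.9% of genes, 0 with DESeq2), with 0.689% of genes lower and 2.69% higher. Its median was -0.39, and Rps13 was nearest at -1.36 ± 0.43 (SE, edgeR adjusted p = 0.110). The fall after OVA was thus not shown to differ from the course after CpG in any member. At 12 h neutrophil genes summed to 2565 and 2597 CPM after OVA and to 14298 and 18149 after CpG. Conventional DC genes summed to 5029 and 5279 CPM against 8656 and 16639. The part of these transcripts was not tested.

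In the costimulation experiment no member passed edgeR's test. With OT cells present, DC after OVA had a median member change of 0.39, with 67 of 75 above 0 and 8 below (52.3% of genes were below), but 0 passed (8 at an unadjusted p under 0.05, as had 17.4% of genes, 1 with DESeq2), where 1.33% of 9355 genes were lower and 1.27% higher. Rps19, a small subunit protein and the most often mutated gene in Diamond-Blackfan anaemia, was at 171 and 292 CPM without OT cells and at 474 and 612 with them. The groups did not overlap (log2 1.31 ± 0.35, SE, edgeR adjusted p = 0.0750), and 21.3% of all genes tested were higher without overlap. The libraries without OT cells held 2162 and 5715 CPM of 8 NK genes, against 28.8 and 140 with OT cells. Of these genes 8 of 8 were lower with OT cells, as were 8 of 13 T cell genes. Conventional DC genes summed to 7698 and 13406 CPM without OT cells and to 17525 and 17865 with them. Migratory DC genes summed to 1508 and 3026 against 7013 and 8397, and plasmacytoid DC genes to 2822 and 4654 against 1060 and 1112. Their part was not tested. OVA against BSA, both with OT cells, gave 0 members (10 at an unadjusted p under 0.05, as had 9.09% of genes, 0 with DESeq2), where 0.0107% of genes were lower and 0.0% higher, with Rps15a at 187 and 228 against 98.7 and 75.5 CPM (1.33 ± 0.33, SE, edgeR adjusted p = 0.455). The targeted genes were not at 0 in the libraries labelled Cd80/86 -/-. There Cd80 was at 4.23 and 12.4 CPM and Cd86 at 37.4 and 48.5, against 11.4 and 10.0 and against 81.5 and 82.6 in wild-type DC with OVA and OT cells. Cd80 overlapped and Cd86 was lower in both, and where reads lie along these genes is not given, so the counts do not check the label. The libraries labelled Cd80/86 -/- against those wild-type libraries gave 0 members (8 at an unadjusted p under 0.05, as had 11.4% of genes, 0 with DESeq2), as it gave 0.0% of genes. There the median was -0.39, and Rpl10 was at 119 and 131 against 187 and 228 CPM (-0.80 ± 0.27, SE, edgeR adjusted p = 0.354). Marker sums moved with this comparison, although 0 of the marker genes tested passed: erythroid genes summed to 41.6 and 119 CPM against 6338 and 15177, plasmacytoid DC genes to 2631 and 2676 against 1060 and 1112, and migratory DC genes to 3060 and 3902 against 7013 and 8397. Their part was not tested. The 3 comparisons share the libraries with OVA and OT cells.

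**Figure D4:**
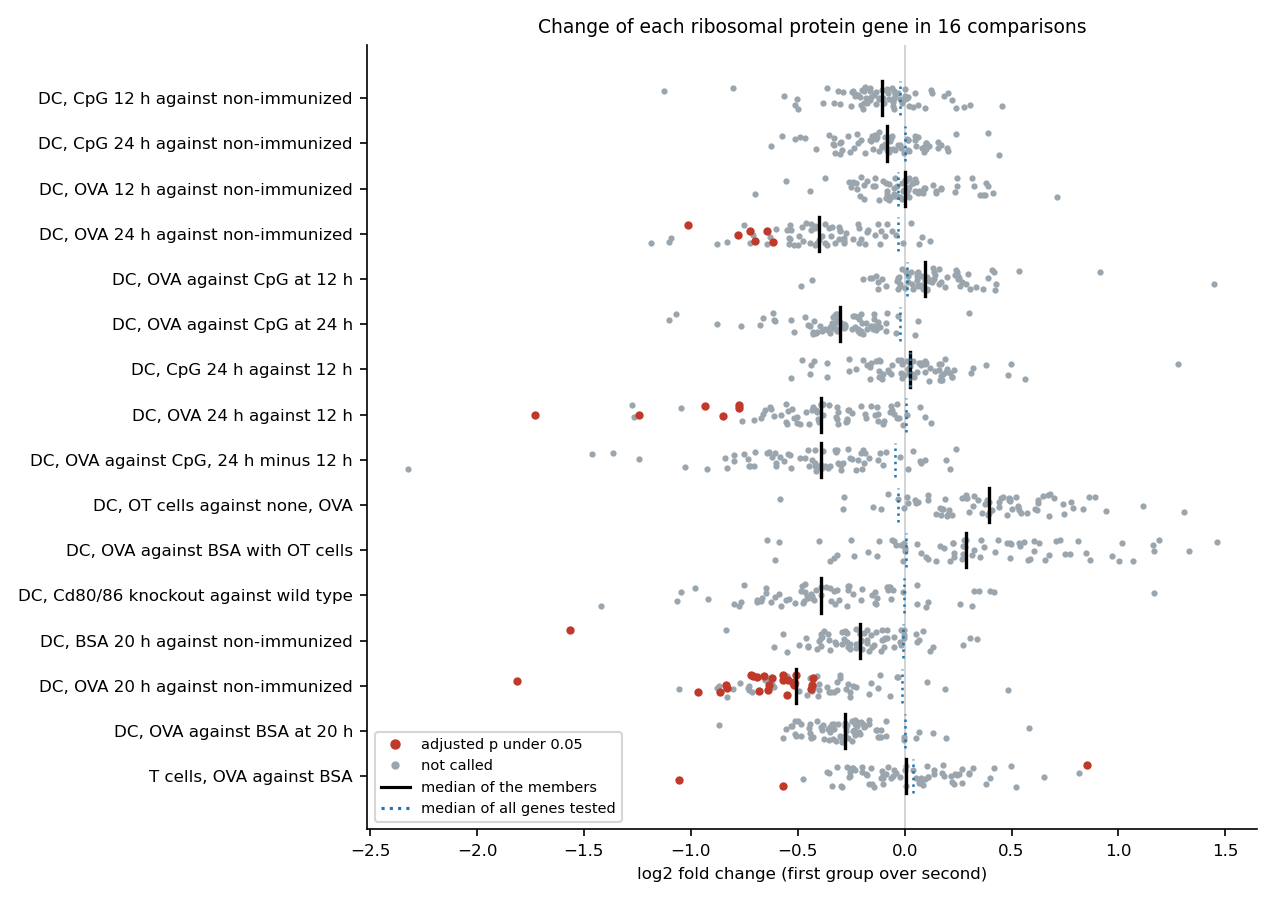
Log2 fold change of each tested member (points; red where the adjusted p is under 0.05) in 16 comparisons, with the median of the members (black bar) and of all genes tested (blue dotted bar). Red points are most frequent at OVA 20 h against non-immunized, with 24, and the members' median lies at -0.51 there, -0.40 at OVA 24 h against non-immunized and 0.00 in T cells.

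In OT-II T cells, where OVA is the antigen recognised by the receptor and BSA is not, few ribosomal protein messages passed the test. Of 74 members tested 1 was higher and 2 lower (limma with trend on log2 of the deposited normalized counts plus 1, Benjamini-Hochberg), where 10.8% of 6452 genes were higher and 5.04% lower. The median was 0.00, with 36 members below 0 and 38 above, and 0.04 over all genes, of which 47.9% were below 0. Rps2, a small subunit protein at the messenger RNA entry, was at 329, 418 and 353 normalized counts after BSA and at 753, 604 and 631 after OVA. All OVA libraries were above all BSA libraries (log2 0.85 ± 0.17, SE, limma adjusted p = 0.00823). Rps27 was at 78.6, 92.7 and 87.6 against 26.2, 54.4 and 47.9 (-1.05 ± 0.28, SE, limma adjusted p = 0.0262). Rpl39, a very small protein lining the exit tunnel, was at 629, 914 and 708 against 457, 506 and 540 (-0.57 ± 0.17, SE, limma adjusted p = 0.0434). Neither pair of groups overlapped. Of all genes tested here, 21.5% were higher and 15.4% lower without overlap of the libraries. Rps2 kept its call with each library left out, whereas Rps27 lost it without any single library other than OVA replicate 2, and Rpl39 without BSA replicate 2 or 3 or OVA replicate 1 or 3. Rplp1 (-0.36) and Rpl15 (0.82) did not pass. Depth and particle cannot be told apart here, and the part of the DC transcripts in these libraries was not tested.

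The messages of factors that make and use ribosomes did move in these T cells. Of 39 ribosome biogenesis genes 32 rose and 0 fell (median log2 1.38), among them Ncl, the nucleolar protein nucleolin, from 278 to 1030 normalized counts (1.83 ± 0.23, SE, limma adjusted p = 0.00260), Nhp2, of the RNA-modifying box H/ACA particles, from 80.2 to 326, and Gnl3 from 38.5 to 136. Of 37 initiation factor genes 18 rose and 0 fell (0.82), with Eif4a1, the helicase that opens messenger leaders, at 1.46. Of 9 elongation and termination genes 5 rose and 0 fell (0.81), with Eif5a at 1.82. Of 18 other TOP mRNAs 8 rose and 0 fell (0.77), led by Npm1 (1.48) and Ybx1 (1.42), so this list did not have the members' median. Of 9 chaperone and import genes of ribosomal proteins 4 rose and 0 fell, led by the importin Ipo5 (1.97). Of 21 mTORC1 and TOP regulators 2 rose and 3 fell: Larp1 rose (0.91), while Sesn1 (-1.60) and Ddit4 (-1.46), which restrain mTORC1, fell.

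In DC at 20 h after OVA, where 6.04% of all genes were lower and 9.59% higher, the same lists gave other counts. Of 35 ribosome biogenesis genes 0 passed (median -0.17), of 36 initiation genes 2 rose and 2 fell (0.04), and of 10 elongation genes 1 fell, the release factor Gspt1 (-0.54). Eif4e2, a cap-binding protein, rose (0.65) and Eif4g3, a scaffold of initiation, fell (-0.98). Of 18 other TOP mRNAs 2 fell, the snoRNA hosts Snhg8 (-0.89) and Snhg6 (-0.74), and 1 rose, Nap1l1 (0.46). Of 26 mTORC1 and TOP regulators 5 fell and 0 rose, among them Pdcd4 (-0.93), Lamtor3 (-0.87) and Sesn1 (-0.87). At 24 h after OVA in the time course, where 3.92% of all genes were lower and 10.2% higher, 5 of 39 ribosome biogenesis genes were lower and 0 higher (median -0.48), among them Nolc1 (-1.01), Nop56 (-1.13) and Nop58 (-0.80). In that comparison 10 of 16 T cell genes were lower (median -0.83). The biogenesis list summed to 3944 to 14047 CPM in sorted T cells and to 1953 to 3237 in the time course DC, and the part of T cell transcripts was not tested.

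**Figure D5:**
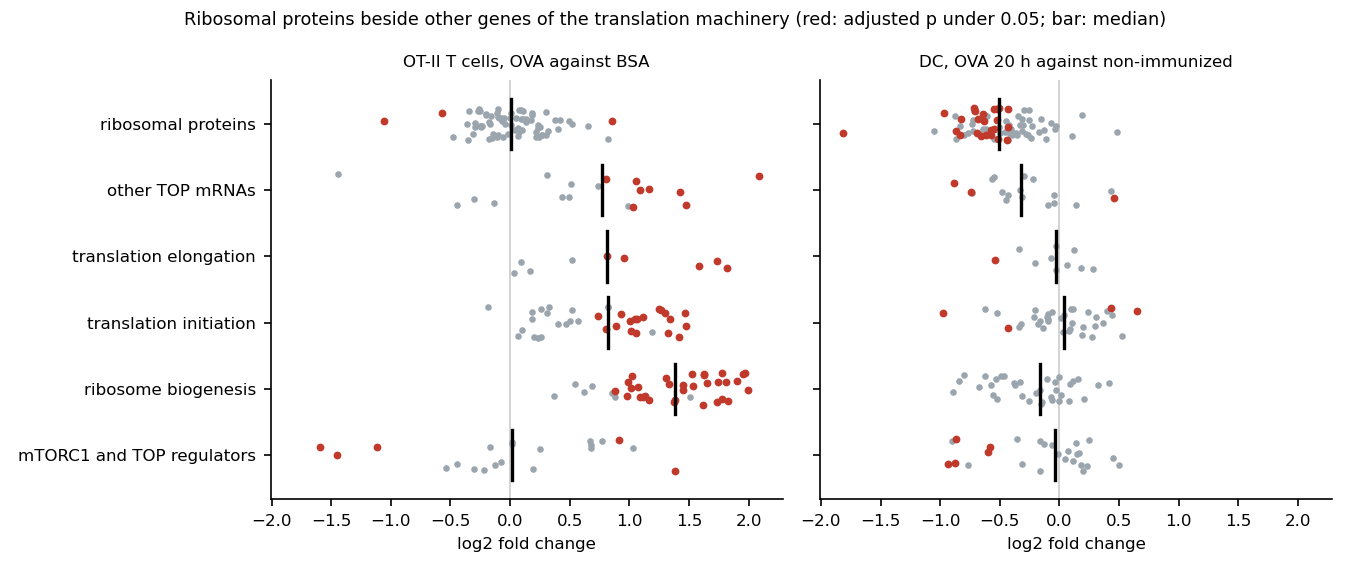
Log2 fold change of ribosomal proteins and of 5 lists of other translation genes in OT-II T cells (OVA against BSA) and in DC (OVA 20 h against non-immunized); each point is a gene, red where the adjusted p is under 0.05, and bars are medians. In T cells the biogenesis list has its median at 1.38 and the ribosomal proteins at 0.00, whereas in DC the ribosomal proteins have the lowest median, -0.51.

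Ribosomal proteins outside the symbol rule and paralogs complete the picture. Rps3a1, a small subunit protein under another symbol form, was at 613, 573, 613, 665 and 614 CPM in non-immunized DC and at 343, 443, 210, 444 and 304 at 20 h after OVA. All OVA libraries were below (log2 -0.67 ± 0.19, SE, edgeR adjusted p = 0.0196), and it was lower at 24 h too (-0.74). Rps27l, a paralog of Rps27 known as a p53 target, went the other way: it rose against non-immunized DC with CpG at 12 h (1.09), with OVA at 12 h (0.88), 20 h (0.56) and 24 h (1.14), and in T cells with OVA against BSA (1.25). With CpG at 24 h (0.57, edgeR adjusted p = 0.163) and with BSA at 20 h (0.36, edgeR adjusted p = 0.198) Rps27l did not pass, and these differences from the other groups were not tested. Rps4l, a paralog of Rps4x, rose with BSA at 20 h (0.77, edgeR adjusted p = 0.0459) and had 0.49 with OVA, which did not pass. In T cells Rps27l was at 38.6, 42.4 and 50.9 normalized counts after BSA and at 135, 84.0 and 102 after OVA, without overlap, in the libraries in which Rps27 fell. Rpl22l1, the paralog of Rpl22, was lower with CpG at 12 h (-0.62) and OVA at 24 h (-0.63).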

How the data were processed

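RNA-seq counts per gene were measured in 39 libraries, 33 of DC and 6 of OT-II T cells. The deposited DC tables hold counts and the T cell table holds normalized signal per gene, whose values were whole reads within 0.01 for 100% of entries after division by the size of 1 read. Per the submitters' processing notes bcl2fastq, HISAT 0.1.6 and HOMER were used with mm9; the treatment of reads with several matches is not given in the sources used here. Among the 5-replicate columns, 4 libraries that match no sample label were not used.

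The authors also deposited, in the T cell table, log2 fold changes and adjusted p-values of their own comparison, which are not printed here.

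The DC counts were tested with edgeR 4.0.16 (quasi-likelihood, TMM factors, filterByExpr by group, all libraries of an experiment in 1 fit). The T cell values were tested with limma 3.58.1 (trend) on log2 of value plus a pseudocount of 1, for genes with at least 10 in 3 libraries; this log2 scale understates changes of low genes. P-values were adjusted over all genes tested, with a threshold of 0.05. CPM is the count over the library total. Alternatives used DESeq2 1.42.0, other scalings, filters and pseudocounts, only the groups compared, the replicate number as a block and each library left out. Scripts were tested on simulated data.

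The members and gene lists were chosen with earlier results of these data known. Named genes were 15 chosen members, up to 3 called per direction with the smallest adjusted p (or the 2 smallest p where none passed), the highest and lowest in level, those farthest from the members' median and up to 3 called per list; the text gives a selection. Members named after their values were seen include Rps14, Rpl18, Rpl32 and those that differ in single libraries.

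Some members are not reported by name here.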

Additional observations from a re-analysis of the deposited data

Results flagged for a closer look

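In the 5-replicate experiment a single library lay far from the others of its group, by the gap between neighbours over the group's range, in 10 of 129 sets (42 named members and the summed share, each in 3 groups), all 10 of them of members. Some members were named for extreme values; over all members it was 20 of 228 pairs of a member and a group (8.77%). The critical ratio used, 0.71, is set to flag about 1 in 20 groups of 5 independent, normally distributed values. Members share libraries here, so whether more were flagged than by chance was not tested. Non-immunized replicate 1 was at 647 CPM for Rpl35a, above its group. Non-immunized replicate 3, the shallowest library, was at 2108 CPM for Rps18, above its group, and at 46.3 CPM for Rps12. Non-immunized replicate 5 was at 131 CPM for Rps10. OVA replicate 3 was at 1784 CPM for Rplp0 and 28.7 CPM for Rps25, both below its group, and at 468 CPM for Rps2, above it. OVA replicate 1 was at 822 CPM for Rps21 and 584 CPM for Rps18, both above its group. BSA replicate 4 was at 3635 CPM for Rps24.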

How the results depend on the processing

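Among the named members, none passed the test in opposite directions in the main analysis and an alternative. The members' median changed sign with 1 library left out where it was near 0: it ran from -0.08 to 0.06 in T cells, -0.09 to 0.08 from 12 to 24 h after CpG, -0.08 to 0.06 at OVA 12 h and -0.19 to 0.02 at CpG 24 h. Counts below are members passing the test. The share of all genes passing is not given here for any alternative. These counts, and those of alternatives given further above, thus have no background beside them. With library totals in place of TMM factors, the lower counts were 4 (CpG 12 h), 1 (OVA 12 h) and 36 (OVA 24 h) against non-immunized DC in the time course, 43 (OVA) and 3 (BSA) at 20 h, and 4 in T cells on recovered reads; the median of all genes moved to -0.24 at OVA 24 h and -0.17 at OVA 20 h. With only the groups compared, 1 was lower at CpG 12 h, 1 higher at OVA 12 h, 13 lower at OVA 24 h, 1 higher with OT cells, 6 lower in libraries labelled Cd80/86 -/- and 2 lower after BSA at 20 h. DESeq2 gave 1 lower at OVA 24 h, 2 lower from 12 to 24 h after OVA and 1 higher with OT cells. Without a filter on low counts, 13 were lower from 12 to 24 h after OVA, 2 higher with OT cells, 4 higher for OVA against BSA with OT cells and 1 lower in libraries labelled Cd80/86 -/-. The cause of these moves was not tested. Leaving out 1 library at a time gave 14 to 27 lower at OVA 20 h, 0 to 3 at BSA 20 h, 0 to 2 at OVA 24 h, 1 from 12 to 24 h after OVA, 0 to 2 in the interaction, 0 to 1 for OVA against CpG at 24 h and 0 to 2 in T cells. It gave 0 to 1 higher for CpG at 12 h, at 24 h and between them, 0 to 4 for OVA against BSA with OT cells and 1 to 2 in T cells. Where this left 1 library in a group, that library was assumed to vary like the others. Chosen after seeing the data, leaving out replicate 3 of both groups gave 8 lower at OVA 20 h, and a term for Y-linked transcripts gave 21 there and 0 at BSA 20 h.

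Replicate numbers did not pair the libraries: correlations of same-numbered deviations ran from -0.14 to 0.18. With the replicate block, 25 were lower at OVA 20 h and 5 at OVA 24 h, 2 were higher with OT cells and 1 was lower in T cells. No paired analysis was possible for OVA against BSA with OT cells because the groups share 1 number. Without the 10 most abundant other genes, mean summed shares were 8.23% (non-immunized), 6.66% (CpG 12 h), 7.26% (CpG 24 h), 6.85% (OVA 12 h) and 6.06% (OVA 24 h) in the time course, 4.49% (OVA without OT cells), 5.57% (OVA with OT cells), 5.01% (BSA with OT cells) and 4.65% (labelled Cd80/86 -/-) in the costimulation experiment, and 7.11% (non-immunized), 6.15% (BSA 20 h), 5.15% (OVA 20 h), 15.3% (T cells, BSA) and 14.2% (T cells, OVA). Depth limits the low members: Rpl28 was too low to be tested in DC.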
